A study of Homo sapiens with 18 samples.

Results

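The genes described here act in the endoplasmic reticulum (ER), the compartment in which secreted and membrane proteins are made and folded. They are the chaperones and enzymes that fold proteins there, the channel that brings them in, the machinery that removes misfolded ones, and the sensors of the unfolded protein response. A list of 44 such genes was looked up by gene symbol, and a gene was tested where its probe passed background on 3 or more arrays. Probe annotation named 42 of them. HERPUD1 and SEC61G were not among the symbols it names and were not analysed here. ERN1, which encodes the sensor IRE1, had 1 probe, which was above background on 0 of 18 arrays. The remaining 41 passed and were tested, among 12547 genes in all. PDIA3 was above background on 3 arrays, 1 in each of 3 groups, so its values lie near background, and the other 40 were above it on all 18. Shares of all genes given further on include genes above background on as few as 3 arrays. Whether those shares depend on signal level was not tested.

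Signals came from SKBR3, an established human breast cancer line with amplified ERBB2, and from SKBR3-R, a line with acquired resistance to lapatinib, an inhibitor of the EGFR and ERBB2 kinases. The resistant line was sampled under basal conditions and with 0.1 µM and 1 µM lapatinib, and the parental line likewise, with 3 arrays in each of the 6 groups and 18 in all. How the resistant line was raised, whether it is 1 clone, whether it was kept in drug and how long the treatments lasted are not given in the sources used here. Nothing states that the 3 arrays of a group came from separate cultures, and p-values therefore cover only the spread among these samples, possibly a technical one. The 2 lines are 1 line each, so a difference between them is a difference between these lines.

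Mean signal per array lay between 417 and 675, with 456 to 528 in resistant basal samples, against 625 to 675 in parental basal samples, and quantile normalization removed that difference in scale. Across genes, which are no independent replicates, arrays of a group had correlations of 0.986 to 0.996. The lowest were those of replicate 3 of resistant cells given 0.1 µM, and where its removal changes a call at that dose, both values are given. Of 7 luminal epithelial markers 6 were above background on all 18 arrays (KRT8, KRT18, KRT19, EPCAM, ERBB2 and GRB7), while CDH1 was on 0. Among markers of other cells KRT14, COL1A2, COL3A1, LUM and PTPRC were on 0 arrays, while PECAM1, VWF, CDH5 and LYZ were on all 18, CD14 on 15 and COL1A1 on 11. LYZ was higher in resistant than in parental cells under basal conditions (log2 change 0.50, adjusted p = 0.00401), and the summed signal of the 2 tested leukocyte markers, of 5 listed, was 224 to 279, against 196 to 203. CDH5 was lower there (-0.42, adjusted p = 0.0121), with a summed signal of 3 of 3 endothelial markers of 338 to 351, against 386 to 410. The 2 tested fibroblast markers, of 5 listed, summed to 192 to 203, against 156 to 178. The 6 tested luminal markers summed to 7.46e+04 to 8.19e+04 in resistant basal samples, against 7.53e+04 to 8.4e+04 in parental basal samples. Among them KRT8 (0.53) and KRT18 (0.44) were higher in resistant cells in limma's test, and KRT19, EPCAM, ERBB2 and GRB7 did not pass it. VWF was higher with 1 µM lapatinib in resistant (0.87) and parental cells (0.46), while PECAM1 (0.10 and -0.07) and CDH5 (-0.25 and 0.004) did not pass the test. Of the luminal markers GRB7 was higher with 1 µM in resistant (0.98) and parental cells (1.66), and EPCAM was lower (-0.34 and -0.37). KRT19 was higher in resistant cells alone (0.43) and ERBB2 in parental cells alone (0.29). KRT8 and KRT18 passed it in neither line. The summed endothelial signal was 399 to 451 at 1 µM in resistant and 410 to 455 in parental cells. The summed luminal signal there was 8.95e+04 to 9.43e+04 in resistant and 8.42e+04 to 9.4e+04 in parental cells. The part of these markers in the results was not tested.

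Proteins enter the ER through the SEC61 channel and are folded by Hsp70-type and Hsp90-type chaperones, lectin chaperones that read their sugars, and enzymes that form disulfide bonds. When folding falls behind, the sensors IRE1, PERK (EIF2AK3) and ATF6 start the unfolded protein response: IRE1 splices the mRNA of XBP1 into that of an active transcription factor, ATF6 is cut to release another, and PERK slows translation and favours ATF4. XBP1 and ATF6 raise chaperone and degradation genes, and misfolded proteins are sent back to the cytosol for destruction. A level of XBP1 mRNA does not show how much of it is spliced, and mRNA levels alone do not measure the activity of a sensor.

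The factors of this response bind short elements near gene starts, shown here for members whose mRNA levels are described further on. The ER stress response element (ERSE, CCAAT and CCACG with 9 bases of any kind between them) is known to be bound by NF-Y with ATF6, the ERSE-II (ATTGG and CCACG with 1 base between them) by the same pair of factors, and the unfolded protein response element (UPRE, TGACGTGG) by XBP1 and ATF6. Sequences are from RefSeq (GRCh38.p14), in windows of 300 bases from 250 before to 50 after each annotated start, searched on both strands. Capitals mark the fixed bases of the element, and an element on the opposite strand appears as its reverse complement.
HSPA5: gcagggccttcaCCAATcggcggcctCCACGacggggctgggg
XBP1: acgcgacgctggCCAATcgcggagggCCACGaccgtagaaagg
HSP90B1: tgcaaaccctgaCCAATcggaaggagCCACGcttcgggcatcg
CRELD2: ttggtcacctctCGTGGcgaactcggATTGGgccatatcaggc
HYOU1: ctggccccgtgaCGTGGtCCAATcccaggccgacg
SDF2L1: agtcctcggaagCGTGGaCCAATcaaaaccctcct
SSR3: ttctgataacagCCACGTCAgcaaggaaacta
The HSPA5 stretch lies at chr9:125241379-125241421 (minus strand), with the element from position -66 to -48 relative to the start. The XBP1 stretch lies at chr22:28800591-28800633 (minus strand), that of HSP90B1 at chr12:103930204-103930246 (plus strand) and that of CRELD2 at chr22:49918542-49918584 (plus strand). The HYOU1 stretch lies at chr11:119057368-119057402 (minus strand), that of SDF2L1 at chr22:21642102-21642136 (plus strand) and that of SSR3 at chr3:156554147-156554178 (minus strand). All are upstream of the start.

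A window was found for 41 of the 44 members (DERL1, SEC24D and PDIA3 had none), with 53 windows in all. A member counted where any of its windows held the element, while the 35116 promoters were counted singly. The member shares are therefore somewhat raised beside those of promoters. The ERSE stood in 7 of the 41 (CALR, CANX, CRELD2, HSP90B1, HSPA5, PDIA6 and XBP1, with 2 copies in HSP90B1), or 17.1%, against 0.0769% of 35116 promoters. The ERSE-II stood in HERPUD1, HYOU1 and SDF2L1 (7.32%, against 0.0541%), with 2 copies in HYOU1, and the UPRE in DNAJC10, HYOU1, SSR3 and SSR4 (9.76%, against 0.729%). The UPRE of HYOU1 overlaps its upstream ERSE-II. In all 13 members held at least 1 of the 3 elements (31.7%, against 0.857%). A match is a run of letters and not a measured binding site, and since several members are textbook targets of this response, these shares are a description.

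In resistant cells under basal conditions the chaperone HSPA5 was 2.08-fold higher than in parental cells, and its partner HYOU1 was 1.6-fold higher. The coat subunit SEC24D was 1.76-fold higher and the glycosylation enzyme STT3A 1.45-fold higher, while the oxidase ERO1A was 1.79-fold lower. In whole cultures fewer cells of a type and less RNA per cell cannot be told apart. Other chaperones did not pass the test, among them HSP90B1 (0.04), MANF (0.20) and DNAJB11 (0.02), all as log2 changes of the resistant over the parental line. In all 9 of 41 members were higher (22.0%, against 7.24% of all genes) and 2 were lower (4.88%, against 8.25%), called at an adjusted p under 0.05 in limma's test over 12547 genes; 15.5% of all genes were called in either direction. The members were chosen with earlier results of these data known, so member shares set beside all genes, here and further on, are a description. The median change was 0.06 over the members and -0.000424 over all genes. With arrays scaled by their median over all probes, in place of quantile normalization, 3 members were higher and 14 lower. The median log2 change was then -0.171 over the members and -0.19 over all genes.

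Of 11 chaperones and their partners, 2 were higher and 0 lower. For this and the following groups the shares of all genes were 7.24% higher and 8.25% lower. HSPA5, which encodes BiP, the main Hsp70 chaperone of the ER lumen and the one that keeps the sensors inactive, had log2 signals of 9.84, 9.91 and 9.89 in resistant cells under basal conditions, 9.86, 9.99 and 10.15 at 0.1 µM lapatinib and 9.88, 9.74 and 9.78 at 1 µM. Parental cells gave 8.79, 8.82 and 8.86 under basal conditions, 9.34, 9.20 and 9.08 at 0.1 µM and 8.91, 9.04 and 9.14 at 1 µM. All 9 resistant arrays lay above all 9 parental arrays. The log2 change between the lines was 1.06 ± 0.10 (SE, 3 against 3 arrays) under basal conditions (adjusted p = 8.36e-09), 0.80 ± 0.10, adjusted p = 1.11e-06 at 0.1 µM and 0.77 ± 0.10, adjusted p = 1.63e-06 at 1 µM. HYOU1, a large Hsp70-like protein that exchanges the nucleotide of BiP, had log2 signals of 9.93, 9.999 and 10.12 in resistant cells under basal conditions, 10.05, 9.80 and 10.03 at 0.1 µM lapatinib and 9.66, 9.74 and 9.67 at 1 µM. Parental cells gave 9.38, 9.45 and 9.18 under basal conditions, 9.19, 9.17 and 9.08 at 0.1 µM and 8.99, 8.76 and 8.77 at 1 µM. Its resistant arrays also all lay above its parental arrays. The change between the lines was 0.68 ± 0.10, adjusted p = 2.03e-05 under basal conditions, 0.81 ± 0.10 at 0.1 µM and 0.85 ± 0.10 at 1 µM. The other HYOU1 probe gave 0.72, 0.79 and 0.77. Of the other chaperones, SDF2L1 was 0.31, adjusted p = 0.0748 and DNAJB9 -0.30, adjusted p = 0.104, with arrays of the lines apart for both. DNAJC3 had 0.04, DNAJC10 -0.22, SIL1 0.21, MANF 0.20 and CRELD2 0.05, and none passed the test.

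In the oxidative folding group 1 of 6 members was higher and 1 lower. ERO1A, the oxidase that reloads protein disulfide isomerases, had log2 signals of 8.40, 8.39 and 8.32 in resistant cells under basal conditions, 8.31, 7.99 and 8.23 at 0.1 µM lapatinib and 8.17, 8.05 and 7.97 at 1 µM. Parental cells gave 9.33, 9.18 and 9.14 under basal conditions, 8.92, 9.01 and 8.80 at 0.1 µM and 8.87, 8.78 and 8.71 at 1 µM. Every resistant array lay below every parental array. The change between the lines was -0.84 ± 0.11, adjusted p = 1.65e-06 under basal conditions, -0.73 ± 0.11 at 0.1 µM and -0.72 ± 0.11 at 1 µM. P4HB, protein disulfide isomerase itself, had log2 signals of 12.81, 12.79 and 12.70 in resistant cells under basal conditions, 13.11, 12.90 and 13.07 at 0.1 µM lapatinib and 12.93, 13.06 and 12.87 at 1 µM. Parental cells gave 12.35, 12.47 and 12.34 under basal conditions, 12.69, 12.68 and 12.77 at 0.1 µM and 12.68, 12.81 and 12.82 at 1 µM. Under basal conditions its resistant arrays lay above the parental ones (0.38 ± 0.09, adjusted p = 0.00414). The other isomerases PDIA3 (-0.09), PDIA4 (-0.24), PDIA5 (0.13) and PDIA6 (0.23) did not pass the test. Nor did the lectin chaperones calreticulin (CALR, 0.41, adjusted p = 0.0986, arrays apart) and calnexin (CANX, -0.20).

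In the group of sensors and transcription factors, in which WFS1 was counted too, 3 of 5 tested members were higher and 0 lower. XBP1, the transcription factor made active by IRE1, had log2 signals of 13.99, 14.19 and 13.88 in resistant cells under basal conditions, 14.30, 14.40 and 14.64 at 0.1 µM lapatinib and 14.62, 14.52 and 14.57 at 1 µM. Parental cells gave 13.81, 13.57 and 13.49 under basal conditions, 14.03, 14.06 and 14.18 at 0.1 µM and 14.30, 14.19 and 14.25 at 1 µM. Resistant basal arrays lay just above the parental basal ones, and every treated array lay above the basal arrays of its own line. The change between the lines was 0.40 ± 0.11, adjusted p = 0.0115 under basal conditions, 0.36 ± 0.11, adjusted p = 0.0189 at 0.1 µM and 0.32 ± 0.11, adjusted p = 0.0345 at 1 µM. A dimmer XBP1 probe gave 0.53, 0.62 and 0.54. CREB3L2, a membrane-bound transcription factor related to ATF6 that raises secretory pathway genes, had log2 signals of 10.63, 10.86 and 10.67 in resistant cells under basal conditions, 11.27, 10.90 and 10.97 at 0.1 µM lapatinib and 11.18, 11.28 and 11.24 at 1 µM. Parental cells gave 10.47, 10.21 and 10.35 under basal conditions, 10.84, 10.77 and 10.80 at 0.1 µM and 11.16, 11.09 and 10.99 at 1 µM. Its basal arrays did not overlap between the lines (0.38 ± 0.10, adjusted p = 0.0105). WFS1, a membrane protein of the ER that in human and mouse cells restrains ATF6, had log2 signals of 10.27, 10.18 and 10.18 in resistant cells under basal conditions, 10.40, 10.42 and 10.70 at 0.1 µM lapatinib and 10.44, 10.36 and 10.48 at 1 µM. Parental cells gave 9.76, 9.74 and 9.83 under basal conditions, 9.68, 9.84 and 9.66 at 0.1 µM and 9.90, 9.77 and 9.87 at 1 µM. All resistant arrays lay above all parental arrays. The change between the lines was 0.43 ± 0.10, adjusted p = 0.00216 under basal conditions, 0.78 ± 0.10 at 0.1 µM and 0.58 ± 0.10 at 1 µM.

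Neither of the 2 sensors tested was called between the untreated lines. ATF6, the sensor that is cut in the Golgi, had log2 signals of 10.54, 10.75 and 10.65 in resistant cells under basal conditions, 10.63, 10.69 and 10.76 at 0.1 µM lapatinib and 10.77, 10.39 and 10.67 at 1 µM. Parental cells gave 10.65, 10.69 and 10.68 under basal conditions, 10.62, 10.59 and 10.74 at 0.1 µM and 10.53, 10.65 and 10.71 at 1 µM. Its arrays overlapped between all groups, and it was called in 0 of the 9 comparisons. The change between the untreated lines was -0.03, with a 95% interval of -0.23 to 0.17. EIF2AK3, which encodes PERK, had log2 signals of 7.57, 7.65 and 7.55 in resistant cells under basal conditions, 7.80, 7.66 and 8.06 at 0.1 µM lapatinib and 8.32, 8.39 and 8.16 at 1 µM. Parental cells gave 7.57, 7.37 and 7.30 under basal conditions, 7.38, 7.50 and 7.996 at 0.1 µM and 7.74, 7.41 and 8.17 at 1 µM. Untreated arrays overlapped (0.18, adjusted p = 0.518), while the 3 resistant arrays at 1 µM lay above those of the untreated lines. ERN1 was not well above background on any array and has no value here.

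The ubiquitin ligase of ER-associated degradation was the only 1 of 7 members of that group called between the untreated lines. SYVN1, which encodes the ligase HRD1, had log2 signals of 10.96, 10.89 and 10.52 in resistant cells under basal conditions, 10.64, 10.52 and 10.86 at 0.1 µM lapatinib and 10.75, 10.73 and 10.97 at 1 µM. Parental cells gave 10.50, 10.18 and 10.29 under basal conditions, 10.57, 10.44 and 10.45 at 0.1 µM and 10.40, 10.37 and 10.51 at 1 µM. Its basal arrays lay apart, with the lowest resistant one at 10.52 and the highest parental one at 10.50 (0.47 ± 0.12, adjusted p = 0.00575). Its other probe gave 0.34, adjusted p = 0.158. SEL1L, the partner of HRD1, had -0.09, and the mannosidase-like EDEM1 and EDEM2 had 0.07 and 0.24. DERL1, DERL2 and SELENOS, which take part in moving proteins back out of the ER, had -0.07, 0.04 and 0.04.

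In the group for entry, sugar transfer and exit, 1 member of each of 3 complexes was called. STT3A, the catalytic subunit of an oligosaccharyltransferase, had log2 signals of 11.88, 12.09 and 11.66 in resistant cells under basal conditions, 12.14, 12.01 and 11.79 at 0.1 µM lapatinib and 11.85, 11.88 and 11.86 at 1 µM. Parental cells gave 11.39, 11.34 and 11.28 under basal conditions, 11.24, 11.26 and 11.16 at 0.1 µM and 11.34, 11.35 and 11.39 at 1 µM. All resistant arrays lay above all parental arrays (0.54 ± 0.10, adjusted p = 0.000435 under basal conditions, 0.76 ± 0.10 at 0.1 µM and 0.51 ± 0.10 at 1 µM). DDOST, another subunit of that enzyme, had 0.04, 0.24 (0.15 without resistant 0.1 µM replicate 3) and 0.12. SEC24D, which selects cargo in the coat of vesicles that leave the ER, had log2 signals of 8.91, 9.12 and 8.97 in resistant cells under basal conditions, 9.11, 8.75 and 8.95 at 0.1 µM lapatinib and 8.99, 9.29 and 8.998 at 1 µM. Parental cells gave 8.21, 8.18 and 8.18 under basal conditions, 8.28, 8.06 and 8.06 at 0.1 µM and 7.76, 8.04 and 8.04 at 1 µM. The resistant arrays lay above all parental ones, and the change was 0.81 ± 0.12, adjusted p = 1.26e-05 under basal conditions, 0.81 ± 0.12 at 0.1 µM and 1.14 ± 0.12 at 1 µM. SEC23B, of the same coat, had 0.04, 0.24 and -0.02. Its other probe gave -0.03, 0.33 (adjusted p = 0.0252) and 0.10. Of the translocation genes SSR3 was lower (-0.53 ± 0.15, adjusted p = 0.0179), while the channel subunits SEC61A1 (0.28) and SEC61B (0.22) and the other TRAP subunits SSR1 (-0.11), SSR2 (0.06) and SSR4 (-0.27) did not pass the test.

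**Figure D1:**
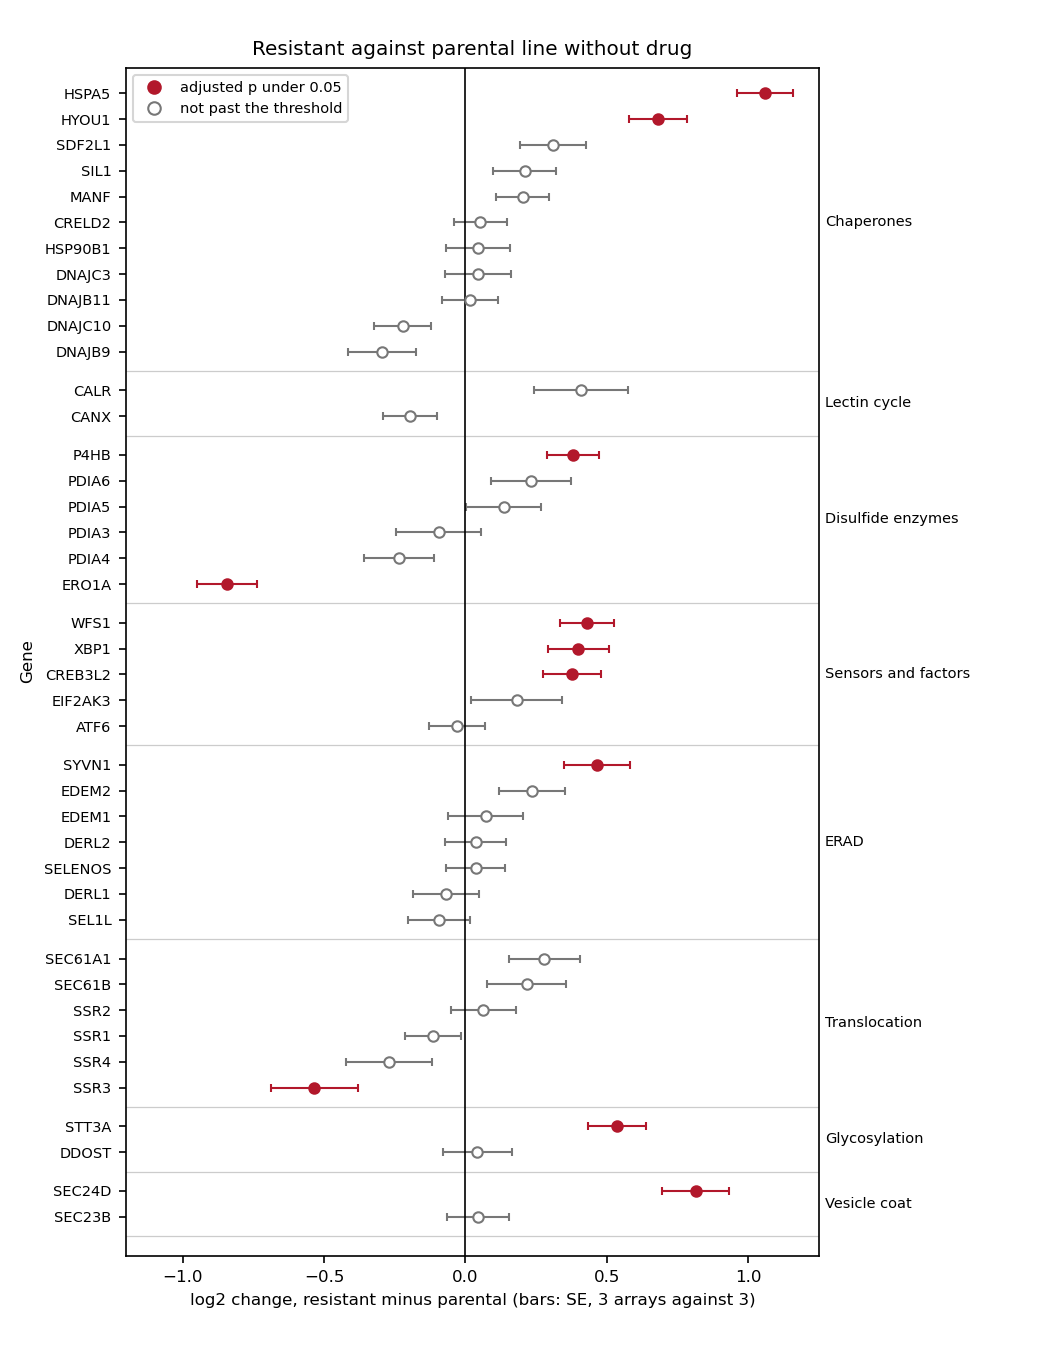
Log2 change of the resistant over the parental line under basal conditions for the 41 tested members, grouped by role; points are the fitted change and bars its SE (3 against 3 arrays), and filled points passed the threshold. HSPA5 at 1.06 and ERO1A at -0.84 mark the ends of the range.

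All 11 of these calls had resistant arrays apart from parental ones. The calls rest on these same arrays, so the gap is no separate evidence. Over all members 46.3% had arrays apart under basal conditions, against 33.7% of all genes. When each of the 18 arrays was left out in turn, 7 of the 11 calls held throughout. Leaving out a single array ended the calls of CREB3L2 without parental basal replicate 2 or resistant basal replicate 2 (adjusted p = 0.0703 to 0.0764), of SSR3 without parental basal replicate 1 or resistant basal replicate 3 (adjusted p = 0.0671 to 0.116), of SYVN1 without resistant basal replicate 1 (adjusted p = 0.0512) and of XBP1 without parental basal replicate 2 or 3 or resistant basal replicate 2 (adjusted p = 0.054 to 0.0833). Median scaling ended 6 of the 11 calls (P4HB, XBP1, CREB3L2, WFS1, SYVN1 and STT3A, adjusted p = 0.274 to 0.981). Under it HSPA5 was 0.75, SEC24D 0.56, HYOU1 0.36, SSR3 -0.77 and ERO1A -1.14. Set against the median gene there, the same 5 were 0.94, 0.75, 0.55, -0.58 and -0.95. Without replicate 3 of the resistant line at 0.1 µM, which enters this comparison only through the shared scale and spread, 13 members were higher and 4 lower.

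**Figure D2:**
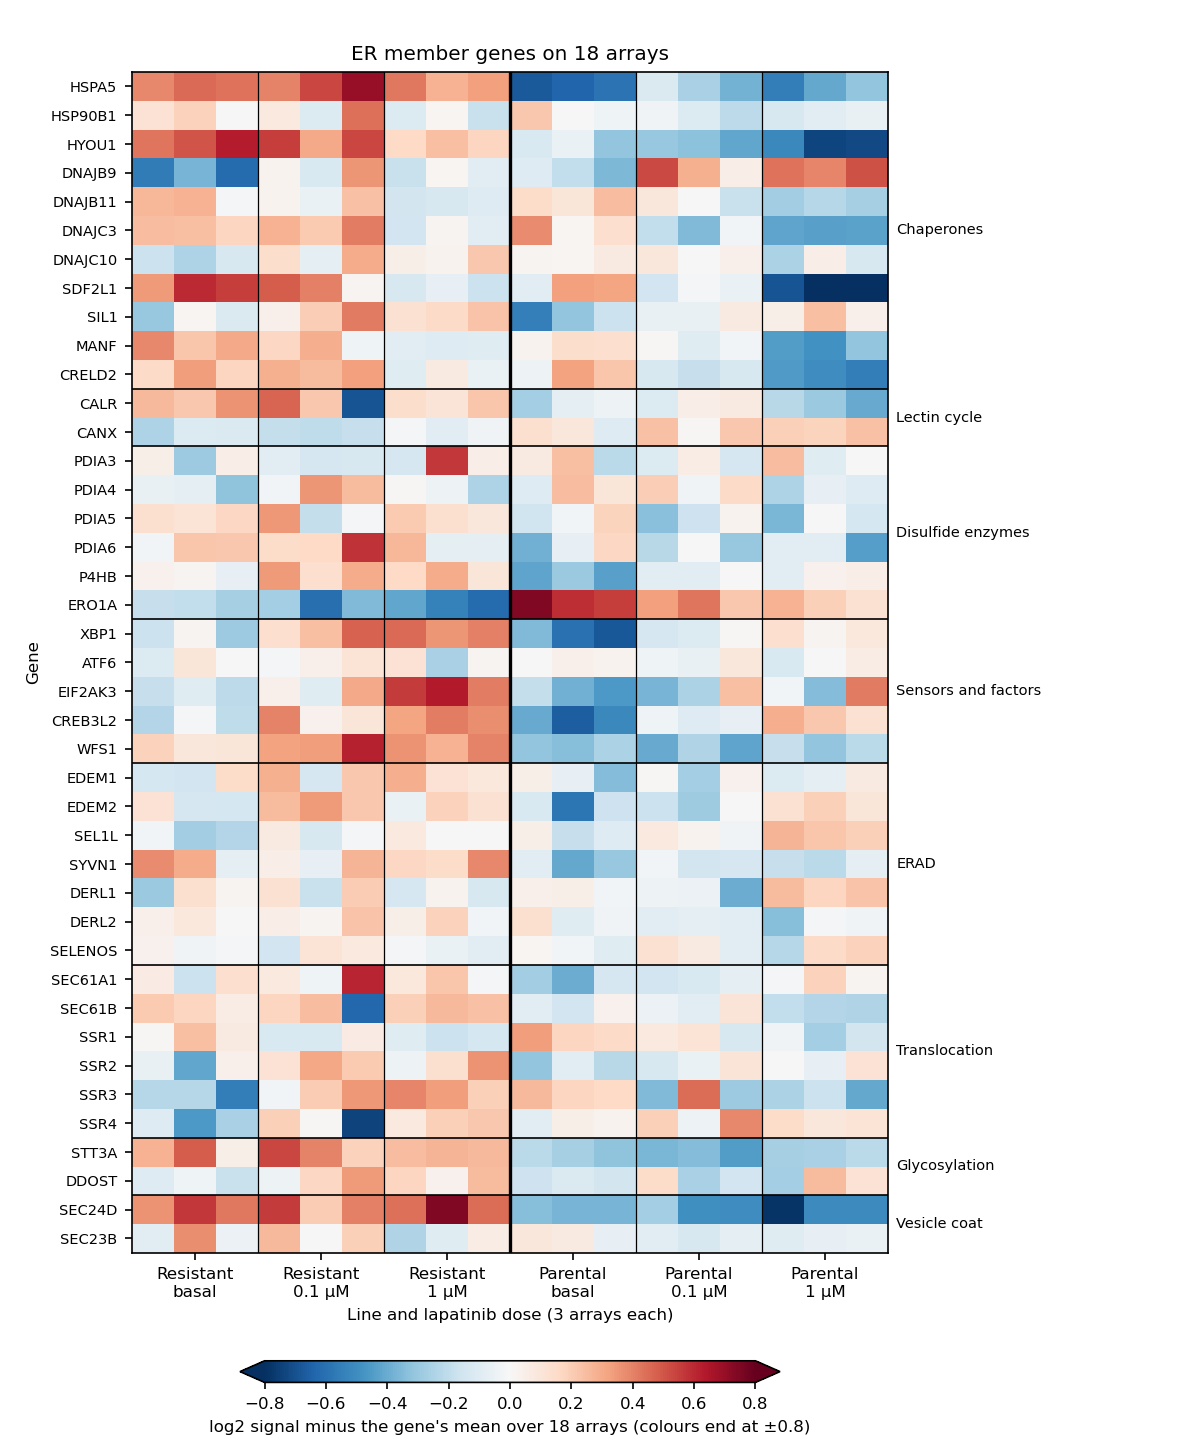
Normalized log2 signal of the 41 tested members on each of the 18 arrays, drawn as the deviation from the gene's mean over all arrays (colour scale), with members grouped by role and arrays by group, the resistant line on the left. HSPA5, HYOU1, SEC24D, STT3A and WFS1 are higher on all 9 resistant arrays and ERO1A on all 9 parental arrays.

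The next question was whether the lines also differed in drug. At 0.1 µM 12 members were higher in resistant cells (29.3%, against 9.77% of all genes) and 2 were lower (4.88%, against 10.4%), 20.1% of all genes being called; under median scaling 6 were higher and 3 lower. At 1 µM 15 were higher (36.6%, against 9.32%) and 2 were lower (4.88%, against 11.9%), 21.3% of all genes being called, with 7 higher and 4 lower under median scaling. Arrays of the lines were apart for 46.3% of members at 0.1 µM (30.5% of all genes) and for 61.0% at 1 µM (38.9%). HSPA5, HYOU1, WFS1, STT3A, SEC24D and XBP1 were higher at all 3 drug levels, or 14.6% of members against 3.38% of all genes, and ERO1A was lower at all 3 (2.44%, against 4.30%). Under median scaling HSPA5, HYOU1, SEC24D and ERO1A stayed called at all 3. WFS1 (0.10) and STT3A (0.18) were then not called under basal conditions, and XBP1 was called at no level. Some fits without 1 array also ended the XBP1 call at each level. All 9 arrays of the resistant line stood above all 9 of the parental line for 5 members (12.2%, against 2.41%) and below for 1 (2.44%, against 3.27%). At each drug level taken alone, the chaperone group had 2 of 11 members called higher under basal conditions, 5 at 0.1 µM, and 6 higher and 1 lower at 1 µM. Whether the number of calls differs between drug levels was not tested.

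Several luminal proteins that did not pass the test under basal conditions did so in drug. The direct test of the difference of responses called 0 of the 11 chaperones and partners at either dose. SDF2L1, a partner of BiP and of the co-chaperone DNAJB11, had log2 signals of 12.41, 12.67 and 12.62 in resistant cells under basal conditions, 12.55, 12.47 and 12.09 at 0.1 µM lapatinib and 11.94, 12.001 and 11.89 at 1 µM. Parental cells gave 11.98, 12.39 and 12.38 under basal conditions, 11.91, 12.05 and 12.01 at 0.1 µM and 11.38, 11.19 and 11.26 at 1 µM. Arrays of the lines were apart by a narrow gap under basal conditions and at 0.1 µM, and by a wide one at 1 µM. The change between the lines was 0.31, adjusted p = 0.0748 under basal conditions, 0.38 ± 0.12, adjusted p = 0.022 at 0.1 µM and 0.67 ± 0.12, adjusted p = 0.000113 at 1 µM. CRELD2, a luminal protein with isomerase-like motifs that is released by stressed cells, had log2 signals of 11.80, 11.98 and 11.81 in resistant cells under basal conditions, 11.93, 11.90 and 11.97 at 0.1 µM lapatinib and 11.55, 11.72 and 11.59 at 1 µM. Parental cells gave 11.60, 11.97 and 11.86 under basal conditions, 11.51, 11.46 and 11.51 at 0.1 µM and 11.19, 11.15 and 11.09 at 1 µM. Basal arrays overlapped between the lines, and those at both doses did not. The change was 0.05 under basal conditions, 0.44 ± 0.10, adjusted p = 0.00141 at 0.1 µM and 0.48 ± 0.10, adjusted p = 0.000536 at 1 µM. DNAJC3, a co-chaperone of BiP, had log2 signals of 7.81, 7.80 and 7.73 in resistant cells under basal conditions, 7.84, 7.77 and 7.97 at 0.1 µM lapatinib and 7.41, 7.58 and 7.47 at 1 µM. Parental cells gave 7.94, 7.58 and 7.69 under basal conditions, 7.36, 7.21 and 7.54 at 0.1 µM and 7.14, 7.12 and 7.14 at 1 µM. Parental treated arrays lay below the resistant ones. The change was 0.04 under basal conditions, 0.49 ± 0.12, adjusted p = 0.00314 at 0.1 µM and 0.36 ± 0.12, adjusted p = 0.028 at 1 µM.

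MANF, a secreted factor that binds BiP, had log2 signals of 12.43, 12.27 and 12.35 in resistant cells under basal conditions, 12.22, 12.34 and 12.02 at 0.1 µM lapatinib and 11.96, 11.95 and 11.95 at 1 µM. Parental cells gave 12.08, 12.19 and 12.18 under basal conditions, 12.06, 11.95 and 12.03 at 0.1 µM and 11.60, 11.56 and 11.73 at 1 µM. Resistant and parental arrays were apart at 1 µM (0.32 ± 0.09, adjusted p = 0.013) and overlapped at 0.1 µM (0.18, and 0.27, adjusted p = 0.0317, without resistant 0.1 µM replicate 3). DNAJB9, a co-chaperone that returns BiP to IRE1, had log2 signals of 9.56, 9.76 and 9.51 in resistant cells under basal conditions, 10.15, 10.001 and 10.48 at 0.1 µM lapatinib and 9.95, 10.14 and 10.03 at 1 µM. Parental cells gave 10.02, 9.93 and 9.77 under basal conditions, 10.65, 10.41 and 10.18 at 0.1 µM and 10.56, 10.51 and 10.63 at 1 µM. Arrays of the lines were apart under basal conditions and at 1 µM and overlapped at 0.1 µM. It was the only 1 of the 11 chaperones and partners called lower in resistant cells, with -0.30, adjusted p = 0.104 under basal conditions, -0.20 at 0.1 µM (-0.34, adjusted p = 0.0421, without resistant 0.1 µM replicate 3) and -0.53 ± 0.12, adjusted p = 0.00211 at 1 µM. CANX, the membrane-bound lectin chaperone, had log2 signals of 9.03, 9.17 and 9.17 in resistant cells under basal conditions, 9.09, 9.08 and 9.10 at 0.1 µM lapatinib and 9.28, 9.20 and 9.26 at 1 µM. Parental cells gave 9.41, 9.37 and 9.18 under basal conditions, 9.52, 9.29 and 9.50 at 0.1 µM and 9.47, 9.46 and 9.52 at 1 µM. Resistant arrays lay below parental ones at 0.1 µM (-0.35 ± 0.10, adjusted p = 0.0102), where its other probe gave -0.23, adjusted p = 0.15, and at 1 µM the change was -0.24, adjusted p = 0.073.

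The other members called between the lines in drug came from several groups. At 0.1 µM PDIA6 (0.47 ± 0.14, adjusted p = 0.0189), EDEM2 (0.42 ± 0.12, adjusted p = 0.00948) and P4HB (0.32 ± 0.09, adjusted p = 0.0141) were higher. At 1 µM SSR3 (0.58 ± 0.15, adjusted p = 0.00703), EIF2AK3 (0.52 ± 0.16, adjusted p = 0.0209), CALR (0.46 ± 0.17, adjusted p = 0.0457), SEC61B (0.45 ± 0.14, adjusted p = 0.0199) and SYVN1 (0.39 ± 0.12, adjusted p = 0.0153) were higher, and the other SYVN1 probe gave 0.19, adjusted p = 0.462. EIF2AK3 was the only one of the 31 calls in drug whose arrays overlapped between the lines. HSP90B1, the ER form of Hsp90, had 0.25 at 0.1 µM and -0.0031 at 1 µM, and DNAJB11, a co-chaperone, 0.10 and 0.13. The 0.1 µM values were 0.10 and 0.02 without resistant 0.1 µM replicate 3. Neither passed the test. DNAJC10 had 0.21, adjusted p = 0.157 at 1 µM, while a second probe gave 0.49, adjusted p = 0.013.

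At 0.1 µM 8 of the 14 calls held with any 1 array left out. Without single arrays the test lost the calls of CANX without parental 0.1 µM replicate 1 (adjusted p = 0.0547), of EDEM2 without parental 0.1 µM replicate 2 (adjusted p = 0.0608) and of P4HB without parental 0.1 µM replicate 1 or 2 or resistant 0.1 µM replicate 1 (adjusted p = 0.0503 to 0.0575). In the same way were lost those of PDIA6 without parental 0.1 µM replicate 1 or 3 or resistant 0.1 µM replicate 3 (adjusted p = 0.0619 to 0.109), of SDF2L1 without parental 0.1 µM replicate 1 or resistant 0.1 µM replicate 1 or 2 (adjusted p = 0.0768 to 0.115) and of XBP1 without parental 0.1 µM replicate 1 or 2 or resistant 0.1 µM replicate 3 (adjusted p = 0.0556 to 0.0738). Without replicate 3 of the resistant line at 0.1 µM 12 members were higher and 3 lower at that dose, and CALR was 0.33, adjusted p = 0.0262, in place of -0.01 with it. PDIA6 was then 0.33, adjusted p = 0.109, and XBP1 0.26, adjusted p = 0.0556. On that array CALR stood at 9.33, SEC61B at 12.19 and SSR4 at 11.62, each below all 17 other arrays. At 1 µM 10 of 17 calls held. Fits without 1 array lost the calls of CALR in 14 of the 18 fits (adjusted p up to 0.145), of DNAJC3 without parental 1 µM replicate 1 or 2 or 3 or resistant 1 µM replicate 2 or 3 (adjusted p = 0.0595 to 0.111), of EIF2AK3 without parental 1 µM replicate 1 or 2 or resistant 1 µM replicate 1 or 2 (adjusted p = 0.0611 to 0.187) and of MANF without parental 1 µM replicate 2 (adjusted p = 0.067). In the same way were lost those of SEC61B without parental 1 µM replicate 2 or 3 or resistant 1 µM replicate 2 or 3 (adjusted p = 0.0569 to 0.0636), of SYVN1 without parental 1 µM replicate 1 or 2 or resistant 1 µM replicate 3 (adjusted p = 0.0502 to 0.0988) and of XBP1 in 6 of the 18 fits (adjusted p up to 0.121). The number of calls was 9 at 0.1 µM without parental 0.1 µM replicate 1 and 10 at 1 µM without parental 1 µM replicate 2. Median scaling ended the calls of SDF2L1, CRELD2, PDIA6, P4HB, XBP1 and EDEM2 at 0.1 µM (adjusted p = 0.15 to 0.867). At 1 µM it ended those of DNAJC3, MANF, CRELD2, CALR, XBP1, EIF2AK3, SYVN1 and SEC61B (adjusted p = 0.0647 to 0.333).

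**Figure D3:**
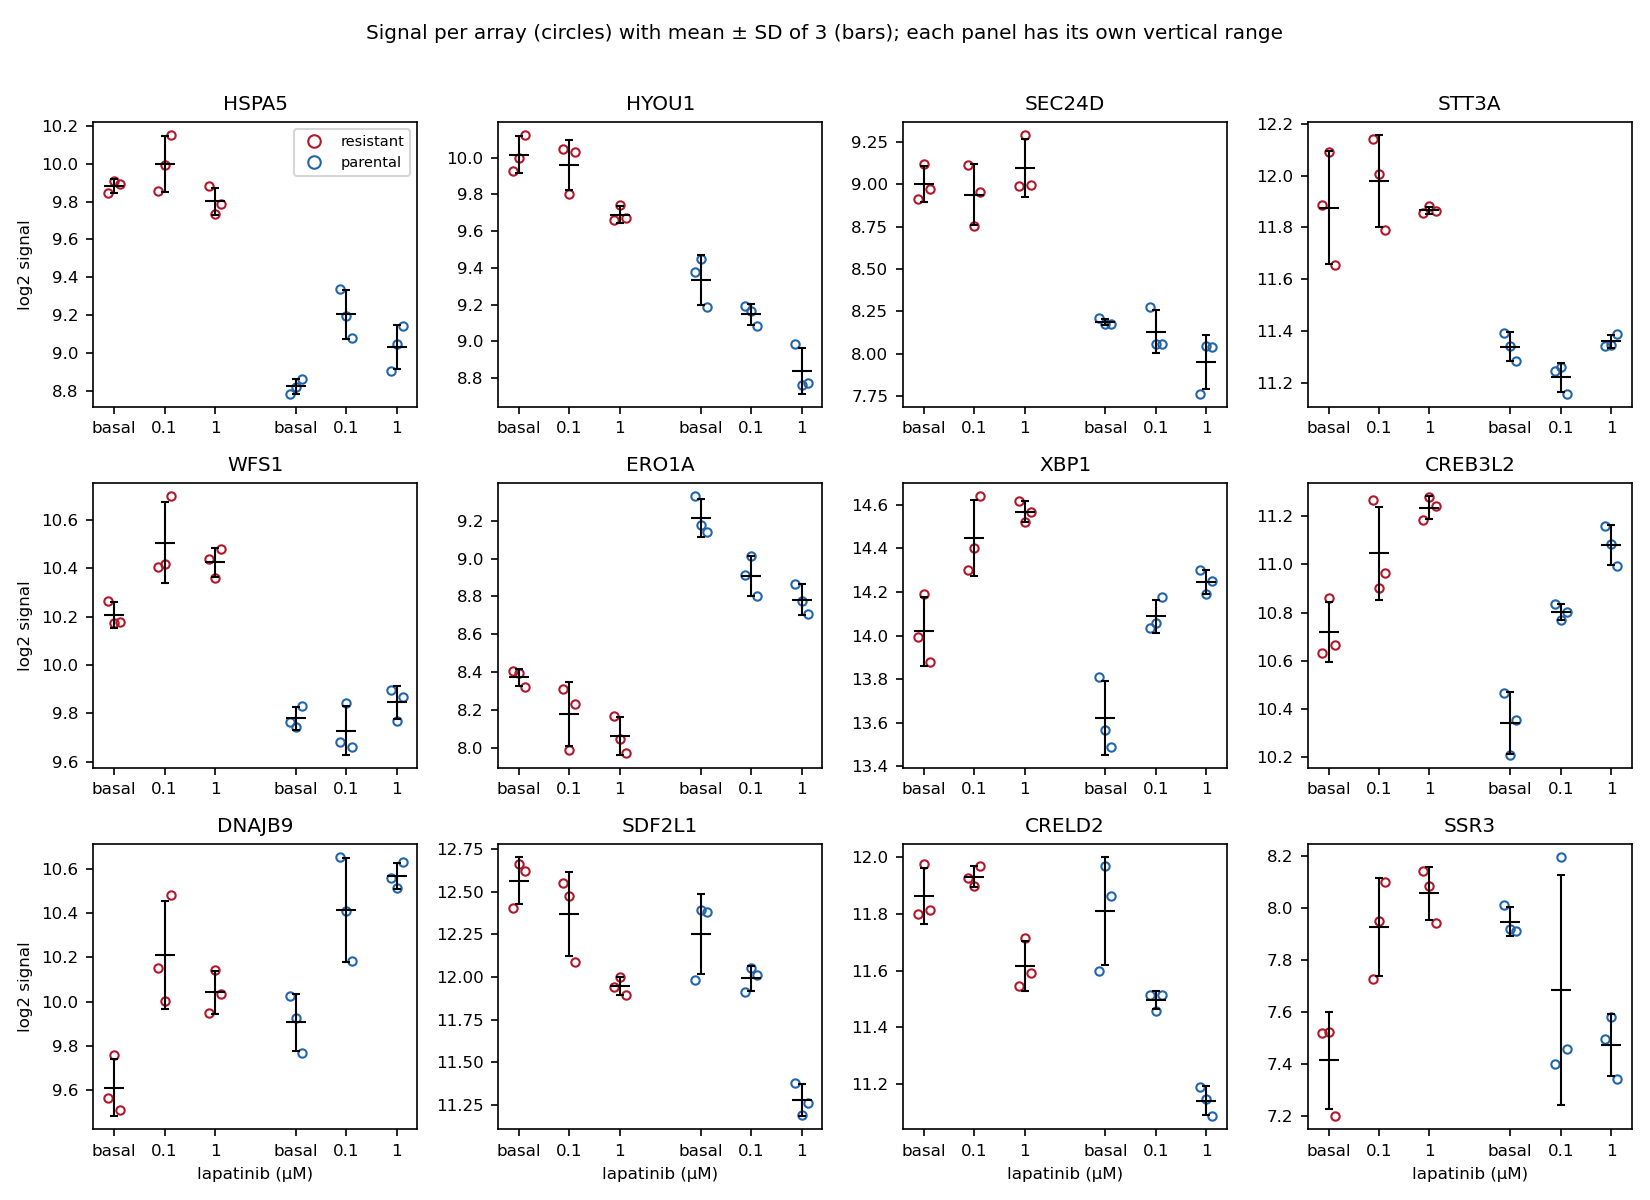
Normalized log2 signal (vertical axes) of selected members at basal, 0.1 µM and 1 µM lapatinib (horizontal axes), with the resistant line on the left and the parental line on the right of each panel, a circle per array and bars for the mean ± SD of 3 arrays. HSPA5 and HYOU1 are higher in resistant cells in all 3 groups, while SSR3 crosses: resistant arrays are at 7.20 to 7.52 under basal conditions and 7.94 to 8.14 at 1 µM, against 7.91 to 8.01 and 7.34 to 7.58 in parental cells.

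In parental cells given 1 µM lapatinib several luminal partners of BiP fell, while other partners, DNAJB9 and SIL1, rose. In the group of sensors and transcription factors, with WFS1 counted in it, 2 of 5 tested members were called higher and 0 lower. SDF2L1 fell 1.97-fold, CRELD2 1.59-fold and DNAJC3 1.52-fold, and CREB3L2 rose 1.67-fold, DNAJB9 1.58-fold and XBP1 1.54-fold. BiP itself did not pass the test at this dose (HSPA5, 0.21, adjusted p = 0.131). In all 8 members were higher (19.5%, against 14.3% of all genes) and 9 lower (22.0%, against 13.6%), 28.0% of all genes being called; under median scaling 2 were higher and 20 lower. The share of members with arrays apart was 61.0%, against 42.7% of all genes. The median change was 0.02 over members and 0.01 over all genes.

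Of the 11 chaperones 6 were lower and 2 higher. SDF2L1 was at 11.38, 11.19 and 11.26 with 1 µM lapatinib, against 11.98, 12.39 and 12.38 under basal conditions, a change of -0.98 ± 0.12, adjusted p = 2.74e-07. CRELD2 changed by -0.67 ± 0.10, adjusted p = 4.11e-06, DNAJC3 by -0.60 ± 0.12, adjusted p = 0.000217 and MANF by -0.52 ± 0.09, adjusted p = 9.37e-05. HYOU1 (-0.50 ± 0.10, adjusted p = 0.000458) and DNAJB11 (-0.42 ± 0.10, adjusted p = 0.00196) were also lower. The second HYOU1 probe gave -0.34, adjusted p = 0.0824. These 6 genes had treated arrays below all basal ones. DNAJB9 was higher (0.66 ± 0.12, adjusted p = 0.000116), as was SIL1, another nucleotide exchange factor of BiP (0.45 ± 0.11, adjusted p = 0.00257), although another SIL1 probe on all 18 arrays gave 0.17 and did not pass the test. DNAJC10, a reductase of the ER, had -0.15, and HSP90B1 had -0.15.

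Outside the chaperones XBP1 was at 14.30, 14.19 and 14.25 with 1 µM, against 13.81, 13.57 and 13.49 (0.63 ± 0.11, adjusted p = 6.13e-05), and its dimmer probe gave 0.66. CREB3L2 was at 11.16, 11.09 and 10.99, against 10.47, 10.21 and 10.35 (0.74 ± 0.10, adjusted p = 2.37e-06). Treated and basal arrays were apart for both genes. P4HB (0.38 ± 0.09, adjusted p = 0.00195), EDEM2 (0.43 ± 0.12, adjusted p = 0.00592), SEL1L (0.31 ± 0.11, adjusted p = 0.0346) and SEC61A1 (0.33 ± 0.12, adjusted p = 0.0464) were higher. ERO1A (-0.43 ± 0.11, adjusted p = 0.00281) and 2 subunits of the translocon-associated TRAP complex, SSR3 (-0.47 ± 0.15, adjusted p = 0.0217) and SSR1 (-0.37 ± 0.10, adjusted p = 0.00555), were lower. The other sensors had -0.04 (ATF6) and 0.36, adjusted p = 0.0964 (EIF2AK3). With each array left out, 13 of 17 calls held. Leaving out a single array ended the calls of EDEM2 without parental basal replicate 2 (adjusted p = 0.0837), of SEC61A1 in 11 of the 18 fits (adjusted p up to 0.188), of SEL1L without parental basal replicate 2 or 3 or parental 1 µM replicate 1 or 2 or 3 (adjusted p = 0.0589 to 0.147) and of SSR3 without parental basal replicate 1 or parental 1 µM replicate 3 (adjusted p = 0.0701 to 0.0956). Median scaling ended the calls of DNAJB9, SIL1, P4HB, EDEM2, SEL1L and SEC61A1 (adjusted p = 0.0679 to 0.999), with SEC61A1 at -0.039. Under it the median change of all genes was -0.136, against 0.0113 with quantile normalization.

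At 0.1 µM fewer members passed the test in parental cells. There were 5 higher (12.2%, against 5.93% of all genes) and 2 lower (4.88%, against 5.34%), 11.3% of all genes being called, with arrays apart for 36.6% of members and 30.5% of all genes; under median scaling, where the median change of all genes was -0.174, 0 were higher and 17 lower. DNAJB9 (0.51 ± 0.12, adjusted p = 0.00528), XBP1 (0.47 ± 0.11, adjusted p = 0.00439), CREB3L2 (0.46 ± 0.10, adjusted p = 0.0027), HSPA5 (0.38 ± 0.10, adjusted p = 0.0119) and P4HB (0.33 ± 0.09, adjusted p = 0.0182) were higher. DNAJC3 (-0.36 ± 0.12, adjusted p = 0.0401) and CRELD2 (-0.32 ± 0.10, adjusted p = 0.0292) were lower. HSPA5 was at 9.34, 9.20 and 9.08 with 0.1 µM, against 8.79, 8.82 and 8.86, so the 3 treated arrays lay above the basal ones. SDF2L1 had -0.26 and MANF -0.14, and neither passed the test. XBP1 and CREB3L2 held when each array was left out, but the dimmer XBP1 probe gave 0.36, adjusted p = 0.0706. Without single arrays the test lost the calls of CRELD2 without parental basal replicate 2 or 3 or parental 0.1 µM replicate 1 or 2 or 3 (adjusted p = 0.0598 to 0.185), of DNAJB9 without parental 0.1 µM replicate 1 (adjusted p = 0.0589) and of DNAJC3 without parental basal replicate 1 or 3 or parental 0.1 µM replicate 1 or 2 (adjusted p = 0.0751 to 0.224). In the same way were lost those of HSPA5 without parental 0.1 µM replicate 1 (adjusted p = 0.0829) and of P4HB without parental basal replicate 1 or 3 or parental 0.1 µM replicate 3 (adjusted p = 0.0663 to 0.0751). Without parental 0.1 µM replicate 1 there were 3 higher and 0 lower. Median scaling ended all 5 calls of higher members (adjusted p = 0.0884 to 0.951).

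In resistant cells given 1 µM lapatinib SDF2L1 fell 1.54-fold and MANF 1.32-fold, while EIF2AK3, which encodes PERK, rose 1.62-fold, SSR3 1.56-fold and XBP1 1.46-fold. In all 8 members were higher (19.5%, against 10.9% of all genes) and 5 lower (12.2%, against 12.1%), 23.1% of all genes being called, with arrays apart for 51.2% of members and 38.1% of all genes; under median scaling 4 were higher and 7 lower. Of the members called at 1 µM, 9 moved the same way in both lines, 4 higher (XBP1, CREB3L2, DNAJB9 and SIL1) and 5 lower (SDF2L1, MANF, HYOU1, ERO1A and DNAJB11). That is 69.2% of the resistant calls and 52.9% of the parental calls, against 67.3% and 55.6% for all genes, which are close to them. SSR3 was called in opposite directions.

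SDF2L1 was at 11.94, 12.001 and 11.89 with 1 µM, against 12.41, 12.67 and 12.62 (-0.62 ± 0.12, adjusted p = 0.000242). MANF (-0.40 ± 0.09, adjusted p = 0.00199), HYOU1 (-0.33 ± 0.10, adjusted p = 0.0202), DNAJB11 (-0.31 ± 0.10, adjusted p = 0.0266) and ERO1A (-0.31 ± 0.11, adjusted p = 0.0365) were lower too, although the second HYOU1 probe gave -0.29, adjusted p = 0.161. EIF2AK3 was at 8.32, 8.39 and 8.16, against 7.57, 7.65 and 7.55 (0.70 ± 0.16, adjusted p = 0.00178). XBP1 was at 14.62, 14.52 and 14.57, against 13.99, 14.19 and 13.88 (0.55 ± 0.11, adjusted p = 0.000395). Treated and basal arrays of these 3 genes did not overlap. CREB3L2 (0.51 ± 0.10, adjusted p = 0.000357), SSR4 (0.44 ± 0.15, adjusted p = 0.0374), DNAJB9 (0.43 ± 0.12, adjusted p = 0.00942), SIL1 (0.30 ± 0.11, adjusted p = 0.0482) and DNAJC10 (0.28 ± 0.10, adjusted p = 0.0446) were higher. Another DNAJC10 probe gave 0.26, adjusted p = 0.221, and 2 other SIL1 probes gave 0.12 (adjusted p = 0.696) and 0.20 (adjusted p = 0.242). CRELD2 (-0.25, adjusted p = 0.0629) and DNAJC3 (-0.29, adjusted p = 0.0724), lower in parental cells, did not pass the test here.

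With each array left out, 6 of these 13 calls held (SDF2L1, MANF, EIF2AK3, SSR3, XBP1 and CREB3L2). Fits without 1 array lost the calls of DNAJB11 without resistant basal replicate 1 or 2 or resistant 1 µM replicate 1 or 2 or 3 (adjusted p = 0.0556 to 0.118), of DNAJB9 without resistant basal replicate 3 or resistant 1 µM replicate 2 (adjusted p = 0.0521 to 0.0541), of DNAJC10 in 11 of the 18 fits (adjusted p up to 0.188) and of ERO1A without resistant basal replicate 1 or 2 or 3 or resistant 1 µM replicate 2 or 3 (adjusted p = 0.0549 to 0.136). In the same way were lost those of HYOU1 without resistant basal replicate 3 or resistant 1 µM replicate 1 or 3 (adjusted p = 0.0579 to 0.104), of SIL1 in 11 of the 18 fits (adjusted p up to 0.233) and of SSR4 without resistant basal replicate 2 or 3 or resistant 1 µM replicate 1 or 2 or 3 (adjusted p = 0.0568 to 0.172). There were 8 calls without resistant basal replicate 3, and 7 without resistant 1 µM replicate 2 or replicate 3. Median scaling ended the calls of DNAJB9, DNAJC10, SIL1 and SSR4 (adjusted p = 0.152 to 0.544).

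**Figure D4:**
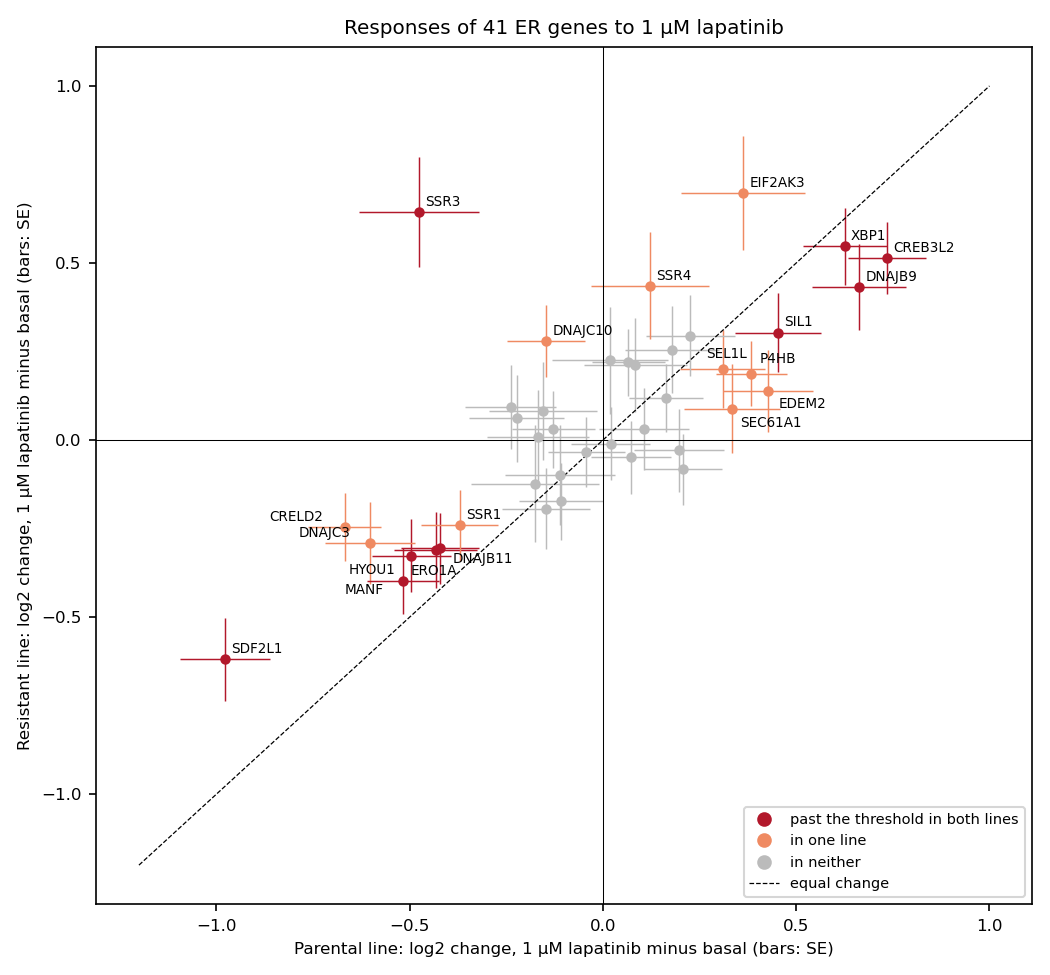
Log2 change at 1 µM lapatinib against basal in the resistant line (vertical axis) and in the parental line (horizontal axis) for the 41 tested members, with bars for the SE of each change, colours for calls in both lines, in 1 or in neither, and a dashed line of equal change. SSR3 lies at 0.64 in the resistant and -0.47 in the parental line, apart from the other members.

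At 0.1 µM 5 members were higher in resistant cells (12.2%, against 4.02% of all genes) and 0 lower (3.30%), 7.32% of all genes being called, with arrays apart for 31.7% of members and 20.1% of all genes; under median scaling 0 were higher and 1 lower. These were DNAJB9 (0.60 ± 0.12, adjusted p = 0.00196), SSR3 (0.51 ± 0.15, adjusted p = 0.0422), XBP1 (0.43 ± 0.11, adjusted p = 0.0146), SIL1 (0.35 ± 0.11, adjusted p = 0.04996) and CREB3L2 (0.32 ± 0.10, adjusted p = 0.0484). DNAJB9 was at 10.15, 10.001 and 10.48, against 9.56, 9.76 and 9.51, with the treated arrays above the basal ones. HSPA5, higher in parental cells at this dose, had 0.12, adjusted p = 0.574 in resistant cells, and 0.04 without resistant 0.1 µM replicate 3. The other SIL1 probes gave 0.15 (adjusted p = 0.701) and 0.38 (adjusted p = 0.0488). DNAJB9 held when each array was left out. Leaving out a single array ended the calls of CREB3L2 in 14 of the 18 fits (adjusted p up to 0.22), of SIL1 in 14 of the 18 fits (adjusted p up to 0.238), of SSR3 in 10 of the 18 fits (adjusted p up to 0.2) and of XBP1 without resistant basal replicate 1 or 3 (adjusted p = 0.0531 to 0.0951). Without replicate 3 of the resistant line at 0.1 µM there were 4 calls, with XBP1 at 0.33, adjusted p = 0.0343, and SSR4 called at 0.38, adjusted p = 0.0292, in place of 0.09 with it. SIL1 was then 0.25 and SSR3 0.43, both no longer called. There was 1 call without resistant basal replicate 1, there were 8 without resistant 0.1 µM replicate 1, and 2 or 3 without any 1 of parental basal replicates 2 and 3, resistant basal replicate 3 or the 9 arrays of parental 0.1 µM, parental 1 µM and resistant 1 µM. Median scaling ended all 5 calls (adjusted p = 0.0511 to 0.458).

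The difference between the responses of the lines was tested directly, as the resistant minus the parental change. At 1 µM 1 of 41 members was called, higher (2.44%, against 0.311% of all genes; 0.375% of all genes were lower and 0.685% were called either way). This was SSR3, the gamma subunit of the TRAP complex, which sits beside the SEC61 channel and helps some proteins to enter. SSR3 had log2 signals of 7.52, 7.52 and 7.20 in resistant cells under basal conditions, 7.73, 7.95 and 8.10 at 0.1 µM lapatinib and 8.14, 8.09 and 7.94 at 1 µM. Parental cells gave 8.01, 7.92 and 7.91 under basal conditions, 7.40, 8.19 and 7.46 at 0.1 µM and 7.49, 7.58 and 7.34 at 1 µM. Under basal conditions every resistant array lay below every parental one, and at 1 µM every resistant array lay above. At 0.1 µM parental replicate 2 stood at 8.19, apart from the other parental arrays at that dose. The difference of responses at 1 µM was 1.12 ± 0.22, adjusted p = 0.0117. It was 1.01, adjusted p = 0.05005 without resistant basal replicate 3. At 0.1 µM the difference was 0.78 ± 0.22, adjusted p = 0.255, and 1.03, adjusted p = 0.0374 without parental 0.1 µM replicate 2. SSR3 had 1 probe.

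The other TRAP subunits had differences of 0.13 ± 0.14 (SSR1), 0.07 ± 0.16 (SSR2) and 0.31 ± 0.21 (SSR4) at 1 µM, and none passed the test. CRELD2 (0.42 ± 0.13, adjusted p = 0.157) and DNAJC10 (0.43 ± 0.14, adjusted p = 0.179) had the next highest values. For EIF2AK3, called in resistant cells alone, the difference was 0.34 ± 0.23 with a 95% interval of -0.13 to 0.80. For HSPA5 it was -0.29 ± 0.14 (-0.58 to 0.0015) and for SDF2L1 0.36 ± 0.17 (0.02 to 0.70). At 0.1 µM limma's test called 0 of 41 members and 0.00797% of all genes.

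Members that carry 1 of the promoter elements did not all differ between the lines. Of those with the ERSE, HSPA5 and XBP1 were higher in resistant cells under basal conditions, while HSP90B1, with 2 copies, had 0.04, CRELD2 0.05, PDIA6 0.23, CALR 0.41 and CANX -0.20. HYOU1 and SDF2L1, with the ERSE-II, were higher in resistant cells at 1 µM and lower with 1 µM lapatinib in both lines. SSR3, with the UPRE, was lower in resistant cells under basal conditions, SSR4 had -0.27 and DNAJC10 -0.22. HYOU1, which holds a UPRE as well, was higher there (0.68). Of the 12 tested members with an element, 7 were higher between the lines at 1 µM and 0 lower, and of the 26 with a window and no element, 7 were higher and 2 lower. Of all genes 9.32% were higher and 11.9% lower there. With 1 µM lapatinib in parental cells the 12 had 1 higher and 4 lower, and the 26 had 7 higher and 5 lower. The shares of all genes there were 14.3% higher and 13.6% lower. These counts were not tested against each other.

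A wider list of 102 tested genes of the same pathways, none of them a member, had 11 higher and 9 lower in resistant cells under basal conditions, or 19.6% called, against 15.5% of all genes; under median scaling 2 were higher and 38 lower. At 0.1 µM 22 were higher and 9 lower (30.4%, against 20.1% of all genes), with 8 higher and 18 lower under median scaling. At 1 µM 19 were higher and 7 lower (25.5%, against 21.3%), with 8 higher and 15 lower under median scaling. With lapatinib at 1 µM 15 were higher and 5 lower in resistant cells (19.6%, against 23.1%), and 11 higher and 10 lower in parental cells (20.6%, against 28.0%); under median scaling 2 were higher and 10 lower in resistant cells, and 1 higher and 34 lower in parental cells. At 0.1 µM 5 were higher and 1 lower in resistant cells (5.88%, against 7.32%), and 5 higher and 0 lower in parental cells (4.90%, against 11.3%); under median scaling 0 were higher and 1 lower in resistant cells, and 0 higher and 38 lower in parental cells.

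Between the untreated lines 7.24% of all genes were higher and 8.25% lower. In the list downstream of PERK and related stress signals 0 of 9 genes were higher and 1 lower between the untreated lines, ATF3, a stress-induced transcription factor (-1.10 ± 0.11, adjusted p = 1.54e-08). DDIT3, which encodes the factor CHOP, was -0.01 under basal conditions, -0.36 ± 0.11, adjusted p = 0.0216 at 0.1 µM and -0.42 ± 0.11, adjusted p = 0.00753 at 1 µM. ATF4, the factor translated when PERK is active, had 0.20, 0.26 and -0.10. Of 8 other sensors and their proteases 3 were higher, among them MBTPS1 (0.39 ± 0.11, adjusted p = 0.0141) and MBTPS2 (0.69 ± 0.12, adjusted p = 0.000165), the proteases that cut ATF6, and CREB3L4, a relative of CREB3L2 (0.45 ± 0.10, adjusted p = 0.00282).

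Among 18 targeting and translocation genes 2 were higher and 2 lower between the untreated lines, where 7.24% of all genes were higher and 8.25% lower. SRPRA, a subunit of the signal recognition particle receptor (0.61 ± 0.11, adjusted p = 0.000223), and the channel subunit SEC61A2 (0.41) were higher, and TRAM1, which works beside the channel (-0.81 ± 0.10, adjusted p = 1.19e-06), and SRP9 (-0.39) were lower. MAGT1, an oxidoreductase subunit of an oligosaccharyltransferase, was the 1 of 8 glycosylation genes called (-0.47 ± 0.13, adjusted p = 0.0138). Of 27 folding genes 3 were higher and 2 lower. GANAB, a subunit of glucosidase II (0.61 ± 0.13, adjusted p = 0.00118), UGGT1, which puts glucose back on misfolded glycoproteins (0.59), and the peroxiredoxin PRDX4 (0.49) were higher. The prolyl isomerases FKBP11 (-0.46) and FKBP14 (-0.46) were lower. In degradation 2 of 16 were higher, NPLOC4, a cofactor of the extraction ATPase (0.53), and MAN1B1, a mannosidase (0.49), and 1 was lower, FAF2 (-0.46). In vesicle traffic 1 of 16 was higher, the cargo receptor SURF4 (0.67 ± 0.12, adjusted p = 0.000143), and 2 lower, the p24 proteins TMED10 (-0.51) and TMED9 (-0.41).

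ATF3, MBTPS2, TRAM1, FAF2, SURF4 and TMED9 were called under all 26 alternatives run. Without single arrays the test lost the calls of MBTPS1 without parental basal replicate 2 or resistant basal replicate 2 or 3 (adjusted p = 0.0567 to 0.07), of SRP9 without parental basal replicate 1 or resistant basal replicate 3 (adjusted p = 0.0886 to 0.0917), of SEC61A2 in 7 of the 18 fits (adjusted p up to 0.14) and of MAGT1 without parental basal replicate 3 or resistant basal replicate 1 (adjusted p = 0.0556 to 0.0592). In the same way were lost those of UGGT1 without resistant basal replicate 2 (adjusted p = 0.13), of FKBP11 without parental basal replicate 1 or 2 or resistant basal replicate 1 or 2 or 3 (adjusted p = 0.0504 to 0.156), of FKBP14 without parental basal replicate 1 or 2 or resistant basal replicate 1 (adjusted p = 0.0767 to 0.143) and of TMED10 without parental basal replicate 1 or 3 or resistant basal replicate 1 or 2 (adjusted p = 0.0595 to 0.14). Median scaling ended the calls of CREB3L4, MBTPS1, SRPRA, SEC61A2, PRDX4, UGGT1, GANAB, MAN1B1 and NPLOC4, all of them higher genes (adjusted p = 0.0672 to 0.757). Testing the difference of responses at 1 µM called 1 of the 102 genes, SEC11C, a catalytic subunit of signal peptidase (0.71 ± 0.15, adjusted p = 0.0242). That count was 0 without any 1 of parental basal replicates 1 and 3, parental 1 µM replicates 1 and 3, resistant basal replicate 3 or resistant 1 µM replicates 2 and 3, 2 without resistant 0.1 µM replicate 1 and 5 without resistant 0.1 µM replicate 3. In resistant cells at 1 µM, 11 to 13 of the 102 were called without any 1 of the basal replicates or of replicates 2 and 3 at 1 µM. Between the lines at 1 µM 17 were called without resistant 1 µM replicate 2. At 0.1 µM there were 3 in parental cells without parental basal replicate 2 and 9 without resistant 0.1 µM replicate 3. In resistant cells at 0.1 µM there were 1 to 3 without any 1 of parental basal replicate 3, parental 0.1 µM replicate 2, parental 1 µM replicate 3, resistant basal replicates 1 and 3 or resistant 0.1 µM replicates 1 and 3.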

How the data were processed

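Total RNA of 18 samples was labelled with biotin as cRNA and hybridized to Illumina bead arrays, per the labels' protocols. The submitters' processing notes name BeadStudio, without its version. Probe signals deposited without normalization are an intensity on a linear scale for 48803 probes, and a second deposited table, of normalized intensity, was an alternative. R 4.3.3 and limma 3.58.1 were used for background correction (normexp, offset 50), quantile normalization and log2. The mode of an array's log2 signals stood for its background, with an SD from the values under it, and a share of 0.05 of background would exceed the limit used. Probes with 1 symbol, updated through RefSeq, were kept where at least 3 arrays exceeded that limit, and the brightest stood for its gene. Several probes were kept for 10 members.

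Means of the 6 groups were fitted (lmFit, eBayes with trend). For 9 contrasts two-sided p-values were adjusted by Benjamini-Hochberg over 12547 genes each. On simulated data for the untreated lines the fit recovered 88% of genes changed 1.5-fold and 100% of those changed 2-fold, beside 14 calls of genes with no change. No pairing by replicate number was fitted, since none is stated and deviations of same-numbered arrays correlated at -0.204 to 0.167. Such correlations cannot show whether same-numbered arrays shared a culture or a day. The members, the wider lists and the promoter elements were chosen with earlier results of these data known. Values on all arrays are given for members called between the untreated lines, the 3 most changed each way in the other comparisons, the sensors and XBP1. Of each wider list up to 4 genes called between the untreated lines were to be named; FKBP14, DDIT3, ATF4 and SEC11C were named after their values were seen.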

Additional observations from a re-analysis of the deposited data

Results flagged for a closer look

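SSR3 was singled out because its responses to 1 µM lapatinib differed between the lines by a test of the difference itself. The resistant minus the parental change was 1.12 (adjusted p = 0.0117, limma), with a change of 0.64 in resistant and -0.47 in parental cells. Every array at 1 µM lay above the basal ones in resistant cells and below them in parental cells. Without resistant basal replicate 3 the difference was 1.01, adjusted p = 0.05005.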

How the results depend on the processing

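Of 85 called member changes 36 held under all 26 alternatives and 43 under the 8 that leave out no array; those held throughout include HSPA5, HYOU1, SEC24D and ERO1A between the lines at all 3 drug levels. Leaving out 1 array at a time gave 9 to 17 called members between the untreated lines, 9 to 16 at 0.1 µM and 10 to 18 at 1 µM. The same fits gave 7 to 15 in resistant cells at 1 µM and 1 to 8 at 0.1 µM, 14 to 17 and 3 to 8 in parental cells, and 0 to 1 and 0 to 1 for the difference of responses. For the 102 wider genes they gave 16 to 22, 25 to 36 and 17 to 31 between the lines, 11 to 28 and 1 to 7 in resistant cells, 16 to 28 and 3 to 9 in parental cells, and 0 to 5 and 0 to 0 for the difference. Fits with fewer arrays have less power.

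Median scaling over all probes gave 17 called members between the untreated lines, 9 at 0.1 µM, 11 at 1 µM, 1 in resistant cells at 0.1 µM and 17 in parental cells at 0.1 µM. It gave 40 wider genes between the untreated lines, 12 and 1 in resistant cells at 1 µM and 0.1 µM, 35 and 38 in parental cells, and 2 for the difference at 1 µM. Under it 96 of 369 member changes turned sign, 7 of them called before or after. Those 7 were HSP90B1 (-0.34), DNAJB11 (-0.37), CRELD2 (-0.30) and SEC23B (-0.32) between untreated lines, XBP1 between lines at 0.1 µM (-0.066), and SEC61A1 (-0.039) and STT3A (-0.33) in parental cells at 1 µM. CALR between lines at 0.1 µM was -0.25 to 0.33 with 1 array left out, highest without resistant 0.1 µM replicate 3. Scaling by the median over tested genes, chosen after seeing the data, gave 8 members higher and 4 lower between untreated lines, 9 and 3 at 0.1 µM, and 5 and 7 in resistant and 6 and 11 in parental cells at 1 µM. At 0.1 µM it gave 2 members and 2 wider genes in resistant cells, and 4 higher and 5 lower members and 14 wider genes in parental cells. For resistant cells at 0.1 µM no filter gave 3 members and 2 wider genes, and a filter on all arrays 8 members. The causes were not tested.

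With the replicate number as a block (replicate block) 11 members were called between the untreated lines, and the block ended 2 of the 85 calls, CALR between the lines at 1 µM (0.46, adjusted p = 0.0522) and CREB3L2 in resistant cells at 0.1 µM (0.32, adjusted p = 0.0557). What same-numbered arrays shared is not stated, and 3 of 45 correlations of their deviations were over 0.1. The simulation held no change under 1.5-fold, and 14 of its calls were false.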

Other observations

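With quantile normalization each array's deviation from the gene means, taken as the median over the 41 members, was -0.00464 to 0.23 on the 9 resistant arrays and -0.125 to -0.0534 on the 9 parental arrays (log2). Under median scaling the median member change between the untreated lines was -0.171, against -0.19 over all genes. At 0.1 µM it was 0.0395, against -0.085, and at 1 µM 0.0565, against -0.0971. The deviation per array was not computed under that scaling. The deviation is given as a description, since all arrays of a line share that line.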
